A study of Mus musculus with 7 samples.

Results

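The genes described are the ubiquitin-specific protease and OTU genes of the mouse testis, taken as the protein-coding genes whose symbols begin with *Usp* and a number or with *Otub* or *Otud*. The rule gave 58 of the 19719 genes in the table, 48 with a *Usp* and 10 with an *Otub* or *Otud* name. It also met 2 non-coding antisense genes of *Usp46*, which were left out. One member, *Usp6nl*, has its name from a sequence likeness and encodes a GTPase-activating protein of Rab proteins rather than a protease. Of the members, 7 lie on the X chromosome (*Usp27x*, *Otud5*, *Usp9x*, *Usp11*, *Usp26*, *Otud6a* and *Usp51*), 1 on the Y chromosome (*Usp9y*) and 50 on autosomes.

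Ubiquitin is a small protein that E3 ligases attach to other proteins, and RLIM, the product of the X-linked gene *Rlim*, is such a ligase. Deubiquitinases take ubiquitin off again, by which they spare substrates from the proteasome, edit signals or reset histone marks. USP and OTU enzymes are cysteine proteases of separate folds, and each has its own set of substrates. Male germ cells exchange histones for protamines and discard most of their cytoplasm, and the ubiquitin system takes part in both steps.

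RNA of total testis was sequenced from C57BL/6 males at 8 weeks of age, from 3 controls with a floxed *Rlim* allele (fl/Y, given as WT in the labels) and 4 littermates in which the Sox2-Cre transgene had deleted *Rlim* (cKO/Y Sox2-Cre, given as Rlim-KO). Sox2-Cre acts in the early embryo, so that the deletion is in somatic and germ cells alike. The paper names no Cre for the controls. Batch 2 of the labels held replicates 1 and 2 of both genotypes, while batch 1 held fl/Y replicate 3 and cKO/Y Sox2-Cre replicates 3 and 4. The labels name no animal for a library, so p-values measure the spread between these libraries.

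The libraries totalled 2822168 to 8633399 reads over the genes of the table, and values are CPM (reads per unit of library size, after the authors' scaling), in which 3 reads, the upper limit behind a 0, stand for 0.301 to 0.945 CPM (counting error alone). *Rlim* was at 99.5, 70.7 and 61.5 CPM for fl/Y replicates 1 to 3 and at 32.6, 35.7, 21.7 and 20.7 CPM for cKO/Y Sox2-Cre replicates 1 to 4, so that the genotypes did not overlap (log2 fold change -1.38, SE 0.16, adjusted p = 0.0087 from limma). Without the batch as a covariate this adjusted p was 0.921, and without fl/Y replicate 1 or 3 it was 0.154 or 0.634. Every listed marker of spermatocytes, spermatids, spermatogonia, Sertoli cells, Leydig cells and macrophages had reads in all libraries, and 0 of 4 epididymis markers were in the table. The summed level of the spermatid markers ran from 5729 to 8540.0 CPM for fl/Y and from 5268 to 10191 CPM for cKO/Y Sox2-Cre libraries, and that of the spermatocyte markers from 2421 to 2985 and from 2394 to 3219 CPM. Most of the spermatocyte sum was *Ldhc*, at 1733 to 2473 CPM, so it says little of the other spermatocyte markers. Where a level is written with ±, the first value is the mean and SD of fl/Y (n = 3) and the second that of cKO/Y Sox2-Cre (n = 4). In total testis RNA, fewer cells of a type and less RNA per cell cannot be told apart. The first principal component (41% of the variance) split the libraries by batch, with batch 2 at -50.2 to -7.38 and batch 1 at 28.0 to 56.0. It placed fl/Y replicate 1 and cKO/Y Sox2-Cre replicate 2 at one end and cKO/Y Sox2-Cre replicate 3 at the other. The second (18.1%) set cKO/Y Sox2-Cre replicate 1 apart, at -58.4, with all other libraries above 0. Mitochondrial genes took 21.4% and 19.4% of the reads of fl/Y replicate 1 and cKO/Y Sox2-Cre replicate 2. They took 5.88% in cKO/Y Sox2-Cre replicate 3, against 8.69 to 19.0% in the other 4. By batch, the share was 12.7 to 21.4% in batch 2 and 5.88 to 9.31% in batch 1.

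The members were searched for a sequence feature of the USP fold, which is not the fold of the OTU enzymes. The Cys box is the conserved stretch around the catalytic cysteine of USP enzymes. A short pattern of it, with a fixed glycine before the cysteine, was searched in a single coding transcript per gene of GENCODE M21 (GRCm38). This pattern was found in 42 of 48 *Usp* members and 0 of 10 *Otub* and *Otud* members. Over all protein-coding genes, members included, it was in 86 of 21782, or 0.395%. Without the members it was in 44 of 21724, or 0.203%. The *Usp* members without a match were *Usp39*, *Usp40*, *Usp47*, *Usp53*, *Usp54* and *Usp6nl*. A miss by this short pattern does not show that the box is absent, and *Usp47*, for one, encodes a protease. The coding bases of the box are shown for the histone H2B proteases *Usp22*, *Usp27x* and *Usp51*, because the reads of these related genes have to be told apart in what follows. Each runs 5′ to 3′ on the coding strand, bases 22 to 24 are the cysteine codon, and capitals mark bases that differ from *Usp22*.
Usp22 (chr11:61162941-61162985, minus strand): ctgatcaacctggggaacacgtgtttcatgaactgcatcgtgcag
Usp27x (chrX:7374580-7374624, minus strand): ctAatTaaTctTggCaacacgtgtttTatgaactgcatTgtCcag
Usp51 (chrX:153008375-153008419, plus strand): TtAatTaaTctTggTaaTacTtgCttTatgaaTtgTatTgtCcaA

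Over these 45 bases, *Usp27x* differed from *Usp22* at 8 and *Usp51* at 15. Over the whole transcripts, 0.331% of the 35-base words of *Usp27x* (the read length of the study) and 0% of those of *Usp22* and *Usp51* occur in transcripts of another gene, so that the 3 genes have no such word in common. The X and Y copies *Usp9x* and *Usp9y* differed at 2 of 45 bases, marked by capitals against *Usp9x*. Even so, 0.0744% of the words of *Usp9y* were shared.
Usp9x (chrX:13145198-13145242, plus strand): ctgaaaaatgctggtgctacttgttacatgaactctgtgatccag
Usp9y (chrY:1333719-1333763, minus strand): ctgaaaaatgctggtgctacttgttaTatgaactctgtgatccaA

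Members with more than 10% of their words in other genes, whose reads may be mixed with theirs, were *Usp49* (50.6% of words, mostly in Gm20517, which overlaps it on the same strand), *Usp1* (29.2%, in Gm5841, which does not overlap it), *Usp14* (25.7%, in *Thoc1*), *Usp33* (22.9%), *Usp38* (20.9%), *Usp34* (12.7%, in *Ahsa2*), *Usp43* (12.1%), *Usp50* (11.3%) and *Otud6b* (10.4%). Values of these members are uncertain to that extent. The genes that share most words with *Usp14*, *Usp33*, *Usp34*, *Usp38* and *Usp43* overlap them on the other strand, and the strand setting of the counting is not given in the sources used here.

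All 58 members passed the filter of more than 1 CPM in at least 3 libraries, as did 19400 of the 19719 genes in the table. Members were taken from that table, so a family gene without a row in it was not counted. *Usp29* and the *Usp17l* genes are not among the 58, and it is not shown that the whole family is expressed. Per kb of exon, *Usp1* had the highest mean level over the 7 libraries (135 CPM per kb), followed by *Usp8* with 115 CPM per kb. *Usp1* acts on FANCD2 and PCNA in DNA repair, and *Usp8* works on endosomes and is known for its part in the formation of the acrosome. *Usp2*, which has testis isoforms, was at 66.3 CPM per kb, *Otub2* at 57.2, *Usp7*, a protease of the p53 and MDM2 pathway, at 57.1, and *Usp44*, a histone H2B and spindle checkpoint protease, at 51.3 CPM per kb. The lowest means were those of *Usp43* (0.367), *Usp35* (0.591), *Usp51* (0.60) and *Usp49* (0.629 CPM per kb). The ranges of libraries of *Usp1* (67.8 to 206 CPM per kb) and *Usp8* overlapped, as did those of most neighbours in this order. Lengths are the union of all annotated exons, so the level per kb is understated for a gene whose testis transcripts are shorter. The paper reports such a short transcript for *Rlim* in mature testis, and transcript lengths of the members were not examined. In all, 21 members had a mean above 100 CPM and 9 a mean under 10 CPM.

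**Figure D1:**
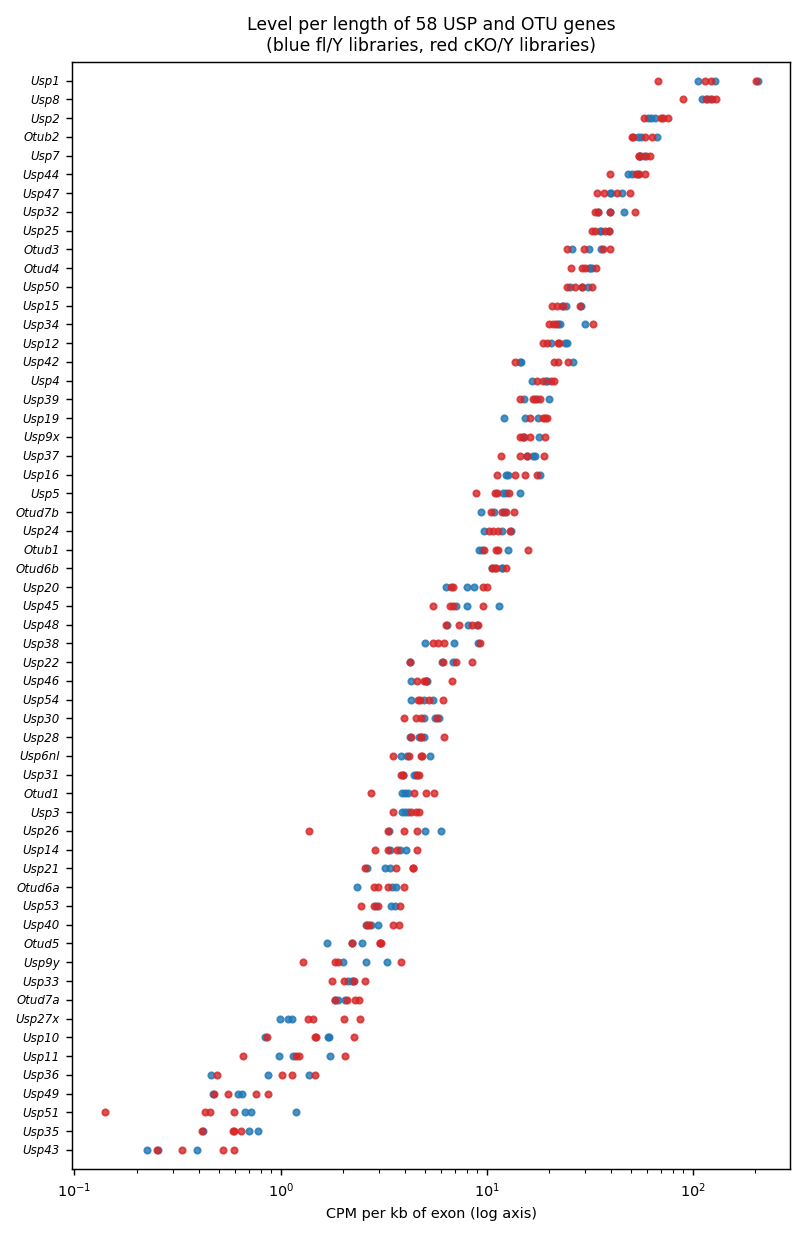
Level of each of the 58 members in CPM per kb of exon (log axis) in each library (3 of fl/Y in blue, 4 of cKO/Y Sox2-Cre in red), ordered by the mean. The order runs from *Usp43* at 0.367 to *Usp1* at 135 CPM per kb, and blue and red points lie within the same range for most genes.

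Between the genotypes, 0 members were higher and 0 were lower at an adjusted p under 0.05 in limma, and the smallest adjusted p of a member was 1.00. Over all 19400 genes tested, 0% were called higher and 0.00515% lower, the latter being *Rlim*. At an unadjusted p under 0.05, *Usp27x* was higher and *Usp51* lower in cKO/Y Sox2-Cre testes, 1 member in each direction, where 1.22% of all genes were higher and 1.37% lower (2.58% in either direction). The recovered reads gave 1 member by the quasi-likelihood test of edgeR and 0 by DESeq2 at that unadjusted p, and 0 members past an adjusted p by either. The same 2 members were the only ones whose genotypes did not overlap, against 1.34% of all genes that were higher without overlap and 1.59% that were lower (2.92% in either direction). The median log2 fold change was 0.01 over the members, with 31 above and 27 below 0, and -0.01 over all genes tested. The two-sided 95% interval of the log2 fold change lay within 2-fold in either direction for 55 members and within 1.5-fold for 39, where 77% and 38.9% of all genes did so. These shares are of genes of unlike level, and genes of low level have wider intervals. The median CPM of all genes in the table was 8.37 to 8.99 in the libraries, while only 9 members had a mean under 10 CPM. The intervals of *Usp27x* and *Usp43* passed 2-fold on the higher side and that of *Usp51* on the lower side.

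**Figure D2:**
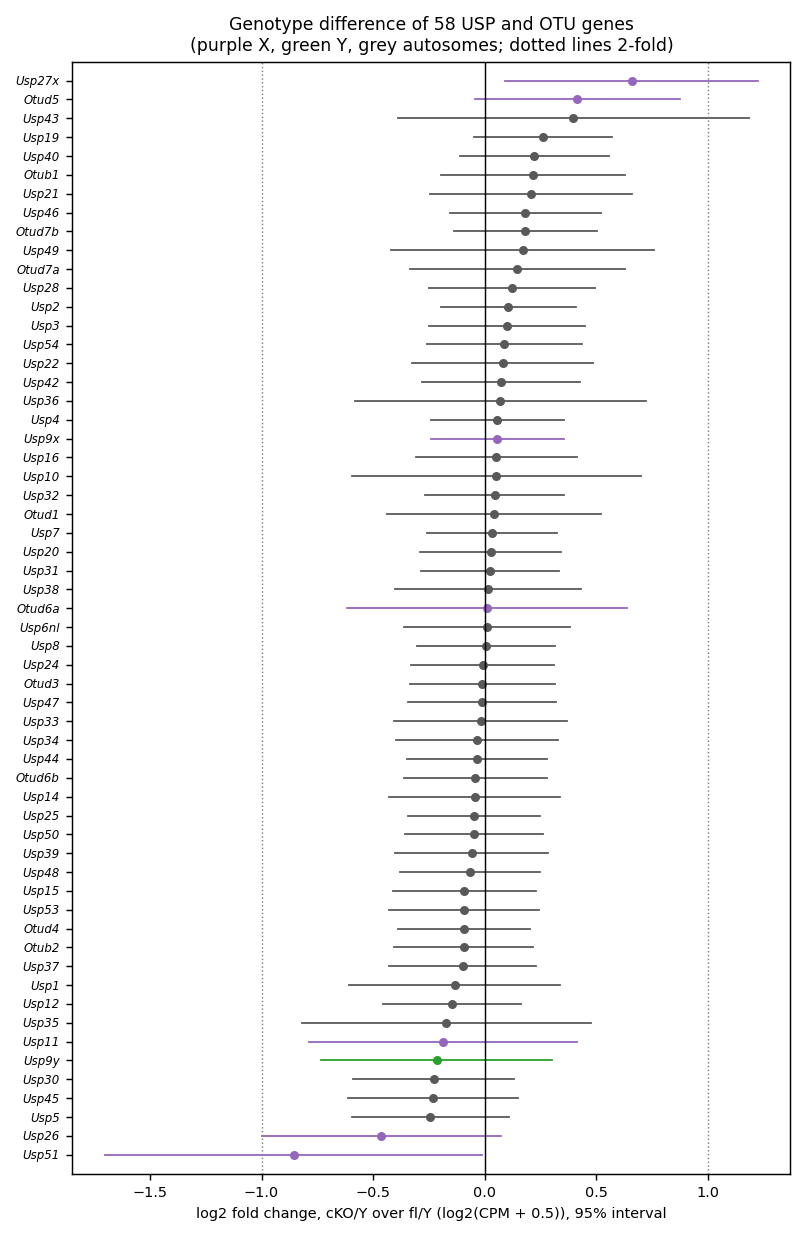
Log2 fold change of cKO/Y Sox2-Cre over fl/Y testes for the 58 members with 95% intervals from limma, on X (purple), Y (green) and autosomes (grey), and dotted lines at 2-fold. The intervals of 56 members include 0, and those of *Usp27x* (0.66) and *Usp51* (-0.86) do not.

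The genotype values that stood farthest from 0 were those of *Usp27x* and *Usp51*, in opposite directions. They are described with their relative *Usp22* as histone H2B proteases, and the role groups were set after the values were seen. USP22 is the ubiquitin protease of the SAGA coactivator complex and removes ubiquitin from histone H2B, and USP27X and USP51 are related enzymes that bind the same partners, ATXN7L3 and ENY2. *Usp27x* (ENSMUSG00000046269, GRCm38 chromosome X from 7371276 to 7375830) was at 4.83, 4.64 and 4.24 CPM for fl/Y replicates 1 to 3 and at 8.68, 5.78, 10.4 and 6.12 CPM for cKO/Y Sox2-Cre replicates 1 to 4. Every cKO/Y Sox2-Cre library was above every fl/Y library, and the highest and the lowest of the 7 came from batch 1. The log2 fold change was 0.66 (SE 0.27, 95% interval 0.09 to 1.22, unadjusted p = 0.0254 and adjusted p = 1.00 from limma), and within batches 1 and 2 it was 0.84 and 0.54. When cKO/Y Sox2-Cre replicate 3 was left out it was 0.52, and its unadjusted p was over 0.05 without that library, without cKO/Y Sox2-Cre replicate 1 or without fl/Y replicate 3.

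*Usp51* (ENSMUSG00000067215, chromosome X from 153006469 to 153009416) is a single gene of very low level here. It was at 1.49, 2.63 and 1.59 CPM for fl/Y and at 0.310, 0.997, 0.945 and 1.30 CPM for cKO/Y Sox2-Cre testes, values that stand for 8, 13 and 6 reads and for 1, 5, 3 and 13 reads. All cKO/Y Sox2-Cre libraries were below all fl/Y libraries, 1 of them under the level of 3 reads and 1 at it. *Usp51* had a log2 fold change of -0.86 (SE 0.40, 95% interval -1.70 to -0.01, unadjusted p = 0.0473 and adjusted p = 1.00 from limma), and within batches 1 and 2 it was -0.37 and -1.18. The ratio of summed reads, 22 in cKO/Y Sox2-Cre to 27 in fl/Y after scaling, was 0.537 with an exact 95% interval of 0.292 to 0.980 that covers counting error only. Its unadjusted p was over 0.05 in edgeR and in DESeq2 on the recovered reads, without fl/Y replicate 1 or 2, and without cKO/Y Sox2-Cre replicate 1 or 3.

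*Usp22*, the most abundant of the 3 per kb of exon, was at 20.6, 29.7 and 33.4 CPM for fl/Y and at 30.1, 20.7, 41.6 and 34.7 CPM for cKO/Y Sox2-Cre testes. The genotypes overlapped throughout, and its log2 fold change was 0.08 with a 95% interval of -0.33 to 0.49. Batch 1 libraries were all above batch 2 libraries (batch 1 over batch 2, log2 difference 0.53, unadjusted p = 0.014 and adjusted p = 0.103 from limma). Of the partners of this enzyme group, *Atxn7l3*, which activates the proteases, was at 20.2 ± 1.36 and 25.0 ± 1.71 CPM, a log2 fold change of 0.27 (unadjusted p = 0.113 from limma). Its fl/Y libraries (18.8 to 21.5 CPM) were all below its cKO/Y Sox2-Cre libraries (23.5 to 26.8 CPM), as for 1.34% of all genes. *Atxn7l1*, a relative of the SAGA subunit gene *Atxn7*, was at 33.0 ± 12.6 and 48.5 ± 14.5 CPM, and was the single gene of 19 listed partners of USP enzymes at an unadjusted p under 0.05 (log2 fold change 0.43, unadjusted p = 0.0465 and adjusted p = 1.00 from limma). The genotypes overlapped for *Atxn7l1*, which was also higher in batch 1 (log2 difference 0.72, adjusted p = 0.0442 from limma). *Atxn7* itself was at 25.3 ± 2.54 and 29.8 ± 7.65 CPM, with overlap between the genotypes. *Atxn7l2*, *Eny2* and *Atxn7l3b* overlapped too, with log2 fold changes of 0.38, 0.07 and -0.04.

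**Figure D3:**
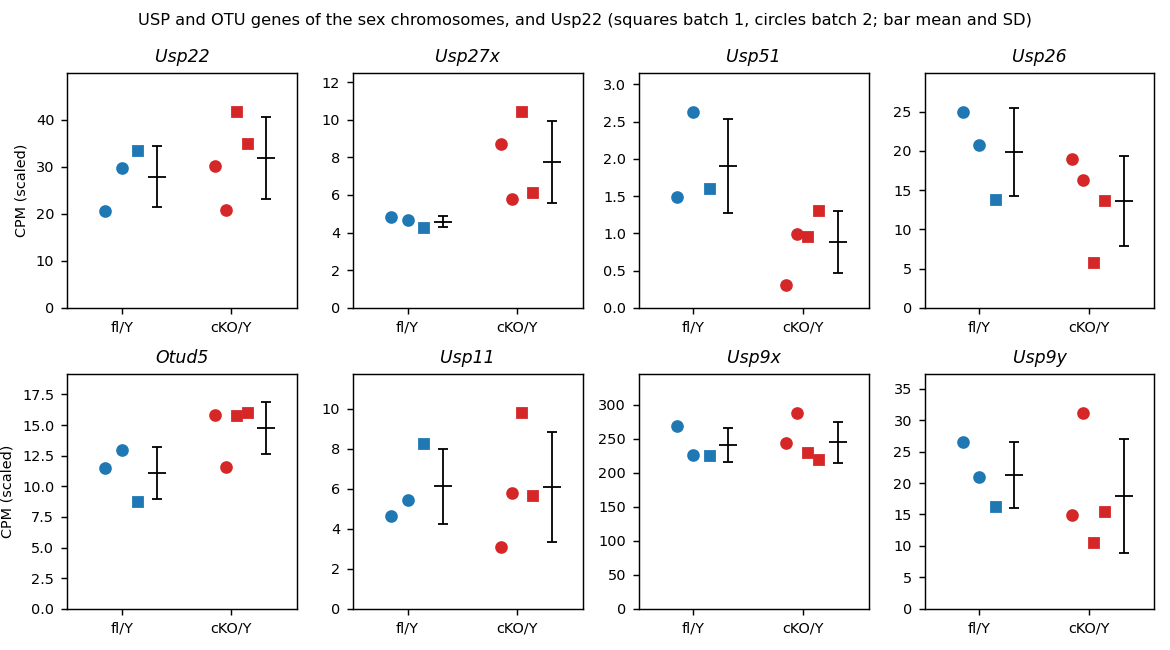
CPM (linear axes from 0) of *Usp22* and of 7 members on X or Y in each library, blue for fl/Y and red for cKO/Y Sox2-Cre. Squares are batch 1 and circles batch 2, and the bars give mean and SD. The genotypes are apart for *Usp27x* and *Usp51* and overlap for the other 6 genes.

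The members on the sex chromosomes included the 4 with the smallest p of all 58, namely *Usp27x*, *Usp51*, *Otud5* and *Usp26*. Of the 7 X-linked members, 2 were at an unadjusted p under 0.05, where 3.63% of 688 X-linked genes tested were. These were *Usp27x*, higher, and *Usp51*, lower and at 1 to 13 reads a library. Neither passed an adjusted p of 0.05, and an excess among X-linked members was not tested. *Rlim* itself lies on this chromosome from 103957163 to 103981284. The nearest member, *Otud6a*, is 3.53 Mb away and had a log2 fold change of 0.01. *Usp51*, *Usp26*, *Otud5* and *Usp27x* are 49.05, 52.2, 96.12 and 96.59 Mb away. *Otud5* (ENSMUSG00000031154, chromosome X from 7841364 to 7876626), a phosphorylated protease that restrains interferon signalling, was at 11.5, 12.9 and 8.75 CPM for fl/Y and at 15.8, 11.6, 15.7 and 16.0 CPM for cKO/Y Sox2-Cre testes. In 3 cKO/Y Sox2-Cre libraries it was above all fl/Y libraries, and replicate 2 fell among them. This gave a log2 fold change of 0.41 (95% interval -0.04 to 0.87, unadjusted p = 0.073 from limma), and within batches 1 and 2 it was 0.82 and 0.14. Leaving out replicate 2 gave 0.59 with an unadjusted p of 0.0134 and an adjusted p of 0.785.

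*Usp26* (ENSMUSG00000055780, chromosome X from 51753959 to 51801233) is a germ cell gene that deubiquitinates the androgen receptor. Its levels were 24.9, 20.8 and 13.8 CPM for fl/Y and 18.9, 16.3, 5.67 and 13.7 CPM for cKO/Y Sox2-Cre testes. The cKO/Y Sox2-Cre library of the lowest level, replicate 3, was also the lowest of all for 3 of the 5 spermatocyte markers, *Sycp1* (93.5 CPM, against 214 to 497 CPM elsewhere), *Sycp3* (35.3 CPM, against 69.0 to 149.9 CPM) and *Dmc1*. It was the highest for *Ldhc*, at 2473 CPM. The summed level of the 5 markers, 2695 CPM there, was inside the range of the other libraries, but most of it was *Ldhc*, so it does not show the state of the other markers. The part of these levels in the result was not tested. The log2 fold change of *Usp26* was -0.46 (95% interval -1.0 to 0.07, unadjusted p = 0.0857 from limma), and within batches 1 and 2 it was -0.61 and -0.36. Leaving out cKO/Y Sox2-Cre replicate 3 gave -0.25, and leaving out replicate 4 gave -0.65 with an unadjusted p of 0.0168.

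*Usp9x* and *Usp9y* encode the FAM proteases, large enzymes with roles in protein turnover and, for the Y copy, a place in a deletion interval studied in male infertility. *Usp9x* was at 269, 226 and 225 CPM for fl/Y and at 243, 287, 229 and 219 CPM for cKO/Y Sox2-Cre testes, with a log2 fold change of 0.06 and a 95% interval of -0.24 to 0.35. *Usp9y* was lower, at 26.6, 21.0 and 16.2 CPM and at 14.9, 31.1, 10.4 and 15.4 CPM, and its log2 fold change was -0.22 (95% interval -0.73 to 0.30). That of *Usp9y* was 0.02 without cKO/Y Sox2-Cre replicate 1 and -0.50 without replicate 2, the latter with an unadjusted p of 0.0344 and an adjusted p of 0.785. Per kb of exon, the lowest library of *Usp9x* (14.6 CPM per kb) was above the highest of *Usp9y* (3.84 CPM per kb). Both members were highest in fl/Y replicate 1 and cKO/Y Sox2-Cre replicate 2.

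*Usp11* is X-linked and related to the autosomal genes *Usp4* and *Usp15*, a set of proteases that act in TGF-beta signalling. *Usp11* was at 4.65, 5.45 and 8.22 CPM for fl/Y and 3.1, 5.78, 9.76 and 5.62 CPM for cKO/Y Sox2-Cre testes, spread by 3.15-fold over the libraries, and the fl/Y values lay inside the range of the cKO/Y Sox2-Cre values. *Usp4* (159.7 ± 14.7 and 168 ± 14.3 CPM) and *Usp15* (422 ± 48.1 and 391 ± 55.0 CPM) were far above it per kb of exon as well. Their log2 fold changes were 0.06 and -0.09, and -0.19 for *Usp11*. *Otud6a*, an intronless relative of *Otud6b*, was at 2.75 ± 0.617 and 2.86 ± 0.441 CPM.

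Of the 8 other proteases of histones and chromatin proteins (*Usp3*, *Usp7*, *Usp16*, *Usp21*, *Usp36*, *Usp42*, *Usp44* and *Usp49*), 0 were at an unadjusted p under 0.05 and their median log2 fold change was 0.07. *Usp7* was the most even member of all, at 429.6, 431 and 452 CPM for fl/Y and 428, 482, 424 and 459.5 CPM for cKO/Y Sox2-Cre testes, so that its highest library was 1.14 times its lowest. For *Usp7* the log2 fold change was 0.03, with a 95% interval of -0.26 to 0.32. *Usp44* was at 203, 195 and 219 CPM for fl/Y and 159.7, 220.1, 237 and 214 CPM for cKO/Y Sox2-Cre testes, where the lowest and the highest values both came from the latter. *Usp42*, a protease of histone H2B and p53, differed by batch and is described with the batches. *Usp36*, a nucleolar protease, ran from 3.53 CPM for fl/Y replicate 1 to 11.3 CPM for cKO/Y Sox2-Cre replicate 3.

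The 12 members of DNA repair and the cell cycle had 3 log2 fold changes above and 9 below 0 (median -0.08), and 0 were at an unadjusted p under 0.05. *Usp1*, *Usp12* and *Usp46* share WDR48 as the partner that activates them. *Usp1* was at 771, 477 and 395 CPM for fl/Y and 457, 754, 253 and 426 CPM for cKO/Y Sox2-Cre testes. It was thus highest in fl/Y replicate 1 and cKO/Y Sox2-Cre replicate 2, and its log2 fold change of -0.13 had a 95% interval of -0.61 to 0.34. *Usp12* was at 106 ± 10.2 and 96.4 ± 8.46 CPM, and *Usp46* at 37.8 ± 3.60 and 42.0 ± 7.55 CPM, with log2 fold changes of -0.15 and 0.18. *Otub1*, which holds back the ubiquitin-conjugating enzyme UBE2N, was at 26.6 ± 4.82 and 30.5 ± 6.77 CPM, and its relative *Otub2* at 218 ± 26.7 and 206 ± 22.7 CPM. *Usp47*, a protease of DNA polymerase beta, had the highest CPM of all members before division by length (574 ± 45.5 and 564 ± 93.0 CPM), with a log2 fold change of -0.01. *Usp45*, a protease of the repair nuclease ERCC1, was at 71.4, 49.7 and 44.0 CPM for fl/Y and 42.5, 60.0, 34.3 and 41.3 CPM for cKO/Y Sox2-Cre testes, a log2 fold change of -0.23 with an unadjusted p of 0.215 from limma. The others of this group were *Otud4*, *Usp24*, *Usp28*, *Usp37* and *Usp48*, with log2 fold changes between -0.10 and 0.12. *Usp25*, the relative of *Usp28*, was at 192 ± 10.6 and 185 ± 16.8 CPM.

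The 8 members of membranes and organelles held *Usp19*, *Usp20*, *Usp30*, *Usp32*, *Usp33*, *Usp35*, *Usp6nl* and *Usp8*. *Usp19*, with an isoform anchored in the endoplasmic reticulum, was at 85.9, 108 and 124 CPM for fl/Y and at 132, 114, 139 and 135 CPM for cKO/Y Sox2-Cre testes. In 3 cKO/Y Sox2-Cre libraries it was above every fl/Y library, and the log2 fold change was 0.26 (95% interval -0.05 to 0.57, unadjusted p = 0.0919 from limma), the smallest p of an autosomal member. *Usp30*, a protease of the outer mitochondrial membrane, was at 33.1 ± 2.89 and 28.9 ± 4.38 CPM, with a log2 fold change of -0.23. *Usp8* was at 506, 493 and 464 CPM for fl/Y and 517, 543, 377 and 484 CPM for cKO/Y Sox2-Cre testes, with a log2 fold change of 0.00 and a 95% interval of -0.31 to 0.31. Of the free chain and proteasome proteases, *Usp5*, which takes unanchored chains apart, was at 59.9 ± 6.24 and 50.7 ± 7.58 CPM (log2 fold change -0.24, unadjusted p = 0.159 from limma). Leaving out cKO/Y Sox2-Cre replicate 1 or 2 gave -0.36 (unadjusted p = 0.0378) or -0.10 for *Usp5*. *Usp14*, which edits chains at the proteasome and is known for its role in the nervous system, was at 31.4 ± 2.76 and 30.2 ± 6.18 CPM.

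The signalling members (*Otud1*, *Otud3*, *Otud5*, *Otud7a*, *Otud7b*, *Usp2*, *Usp10*, *Usp25*, *Usp34* and *Usp38*) had 7 log2 fold changes above and 3 below 0, a median of 0.05, and 0 at an unadjusted p under 0.05. *Usp2* was at 302, 293 and 315 CPM for fl/Y and at 366, 279.5, 336 and 343 CPM for cKO/Y Sox2-Cre testes. *Usp2* had a log2 fold change of 0.11 with a 95% interval of -0.20 to 0.41. *Otud7b*, a protease of the non-canonical NF-kappaB pathway, was at 98.9 ± 12.6 and 111 ± 12 CPM, a log2 fold change of 0.18. *Usp34*, which acts on axin in Wnt signalling, was at 554, 407 and 419.6 CPM for fl/Y and at 398, 603, 371 and 386 CPM for cKO/Y Sox2-Cre testes, and was highest in the same 2 libraries as *Usp1*. *Usp10* was lowest in those 2 libraries, at 7.99 and 8.17 CPM against 14.1 to 21.7 CPM elsewhere.

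Of the remaining members, *Usp39* encodes a splicing factor of the U4/U6.U5 particle that lacks protease activity. It was at 43.1 ± 6.05 and 40.7 ± 3.69 CPM. Together with *Usp50*, *Usp53* and *Usp54* it had log2 fold changes from -0.09 to 0.09. *Usp40* was at 32.9 ± 2.31 and 37.4 ± 6.85 CPM, a log2 fold change of 0.22 with 0.35 within batch 2 and 0.04 within batch 1. *Usp43*, the lowest member per kb of exon, was at 1.86, 1.21 and 1.06 CPM for fl/Y and 2.48, 1.2, 1.57 and 2.81 CPM for cKO/Y Sox2-Cre testes, and its log2 fold change of 0.40 had a 95% interval of -0.39 to 1.18. *Usp31* and *Otud6b* had log2 fold changes of 0.02 and -0.04.

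More members differed by batch than by genotype at an unadjusted p under 0.05, as was so over all genes tested (24.8% by batch and 2.58% by genotype). *Usp42* was at 90.2 and 91.1 CPM in the fl/Y libraries of batch 2 and 132 and 85.9 CPM in its cKO/Y Sox2-Cre libraries, against 164 CPM in the fl/Y and 138 and 155 CPM in the cKO/Y Sox2-Cre libraries of batch 1. Every batch 1 library was above every batch 2 library. The log2 difference of batch 1 over batch 2 was 0.62 (adjusted p = 0.0395 from limma), and *Usp42* was the single member past an adjusted p of 0.05, where 7.06% of all genes were (3.6% higher in batch 1). Its genotype difference was 0.07 (95% interval -0.28 to 0.43). At an unadjusted p under 0.05, 12 members differed by batch, which compares with 24.8% of all genes. Higher in batch 1 were 7 of them (*Usp11*, *Usp20*, *Usp22*, *Usp36*, *Usp42*, *Usp48* and *Otud3*) and lower were 5 (*Usp1*, *Usp9y*, *Usp26*, *Usp32* and *Usp45*). The largest of these falls were those of *Usp26* (-0.85) and *Usp1* (-0.75). With the CPM rescaled to equal totals of the listed genes, 7 members passed the adjusted p for batch, and without the variance trend 0 did.

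**Figure D4:**
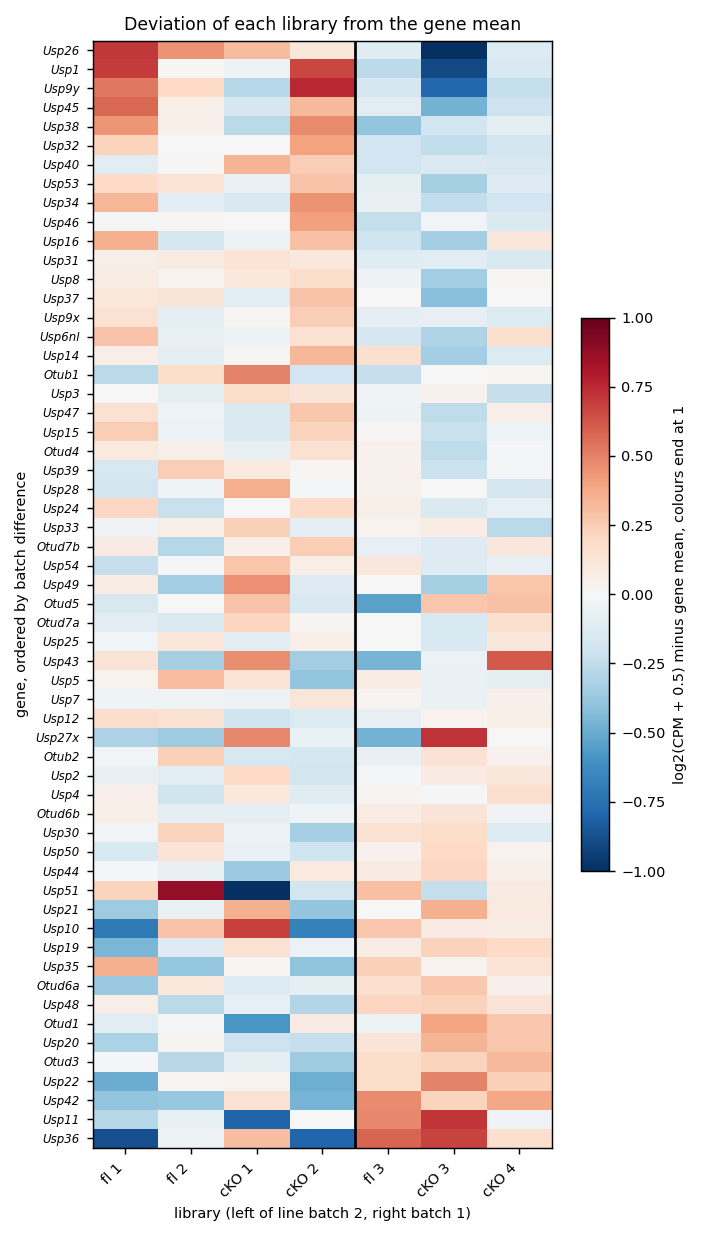
Deviation of log2(CPM + 0.5) from each member's mean over the 7 libraries, in red above and blue below it, with batch 2 left and batch 1 right of the line and members ordered by the batch difference. *Usp26* and *Usp1* at the top are lower in batch 1, and *Usp42*, *Usp11* and *Usp36* at the bottom are higher there.

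A difference of the genotype effect between batches passed an adjusted p of 0.05 in 0 members, against 0.0103% of all genes, and the smallest unadjusted p of that term was 0.128 (0 members under 0.05, against 2.08% of all genes). The log2 fold change had the same sign within both batches in 29 of 58 members, 13 above and 16 below 0, where 48.4% of all genes had. Batch 1 held a single fl/Y library, so that within-batch values rest on 1 control there.

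Single libraries also set apart groups of members, among them 2 libraries of batch 2 at one end of the first principal component. In fl/Y replicate 1 and cKO/Y Sox2-Cre replicate 2 together, 13 members (22.4%) were above the other 5 libraries (*Otud4*, *Usp1*, *Usp15*, *Usp16*, *Usp24*, *Usp32*, *Usp34*, *Usp38*, *Usp45*, *Usp47*, *Usp53*, *Usp9x* and *Usp9y*), where 15.4% of all genes tested were. Below the other 5 in both were 7 members (12.1%, against 15.1% of all genes), namely *Usp10*, *Usp20*, *Usp21*, *Usp22*, *Usp36*, *Usp42* and *Usp50*. These libraries were also those with the lowest summed spermatid markers, 5729 and 5268 CPM, and the part of this in the members' levels was not tested. The summed CPM of all members was highest in them as well, at 7314 and 7542 CPM, and lowest in cKO/Y Sox2-Cre replicate 3 at 5999 CPM, with 6512 to 6660.5 CPM in the other 4. The ratio of the highest to the lowest library had a median of 1.57 over the members. It was under 1.5 in 26 members and over 2 in 12, with *Usp51* (8.46) and *Usp26* (4.39) at the top. Without these 2 libraries, 3 members were at an unadjusted p under 0.05, *Usp27x* (0.84) and *Otud5* (0.59) higher and *Usp51* (-1.05) lower, where 4.58% of all genes were. Without cKO/Y Sox2-Cre replicate 2 alone there were 5 members, *Usp27x*, *Otud5* and *Otub1* higher and *Usp51* and *Usp9y* lower, against 6.28% of all genes.

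Other genes of the ubiquitin system were set beside the members. Of 32 other deubiquitinases that the symbol rule did not take (the UCH, Josephin, JAMM, MINDY and ZUFSP families and OTU or USP relatives such as *Otulin*, *Yod1*, *Uspl1*, *Cyld* and *Tnfaip3*), 0 were higher and 0 lower at an unadjusted p under 0.05, against 1.22% and 1.37% of all genes, and the median log2 fold change was -0.01. The smallest p in this list was 0.248, that of *Mindy2*, at 23.3 ± 5.66 and 18.8 ± 1.39 CPM. Of the 19 partners of USP enzymes, 1 was higher and 0 were lower, with a median log2 fold change of 0.05. The 4 ubiquitin genes were without a call in either direction. *Ubb*, a gene of head-to-tail ubiquitin repeats, was at 673 ± 39.5 and 620.4 ± 94.5 CPM, with its lowest value, 487 CPM, for cKO/Y Sox2-Cre replicate 2. At an unadjusted p under 0.05, 0 of the cell type markers were higher, while 1 of 5 spermatogonia (*Stra8*), 1 of 6 Sertoli cell (*Rhox5*) and 1 of 5 Leydig cell markers (*Star*) were lower, with log2 fold changes of -0.55, -0.55 and -0.33. The 5 spermatocyte, 6 spermatid and 4 macrophage markers gave 0 in either direction.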

How the data were processed

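RNA of total testis was measured in 7 libraries, 3 fl/Y and 4 cKO/Y Sox2-Cre, grouped by the genotype of the labels. The signal values were deposited by the authors as CPM in 1 table of 19719 genes, and reads were not aligned again. The labels' processing notes name HISAT2 2.1.0, featureCounts, edgeR and GRCm38, while the methods of the study name TopHat 2.0.12, HTSeq 0.6.1p1 and edgeR 3.10.0. In each library 100% of values were whole multiples of 1 read to within 0.001 of a read. In cKO/Y Sox2-Cre replicate 4 a read is worth 0.100371 CPM, near a power of 10, so its recovered reads are less certain. The scaling equalled the TMM factors of the recovered reads, which was inferred from the values.

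limma 3.58.1 (R 4.3.3) was run on log2(CPM + 0.5) of the 19400 genes above 1 CPM in 3 or more of 7 libraries. The fit had a variance trend and a term for batch, and its two-sided p-values were adjusted by Benjamini-Hochberg over all genes, with a threshold of 0.05. This scale understates changes of low genes. Exon lengths (union of exons) and transcript sequences are those of GENCODE M21 (GRCm38), in which 58 of 58 members matched by ID, 55 of them with the same start and end. Sequences were read with Python 3.11.15. The settings changed in turn were the pseudocount (0.1 and 1 CPM), filter, scaling, batch term and variance trend. Other fits used a replicate block, 1 batch, all libraries but 1, or edgeR 4.0.16 and DESeq2 1.42.0 on recovered reads. Leaving out 2 libraries together was added after seeing the data.

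The members and lists were chosen with earlier results of these data known, and the role groups were set after the values were seen. Members were named for the smallest p in each direction, the highest level, a place on X or Y, paralog groups and a batch call, which gave 32 members, and the others were named to account for all.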

Additional observations from a re-analysis of the deposited data

Results flagged for a closer look

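In the 4 cKO/Y Sox2-Cre libraries, 2 members had 1 library far from the other 3 (a gap above 0.829 of the range, by Dixon's test). Both were in replicate 2. *Otud5* was at 11.6 CPM there and at 15.7 to 16.0 CPM in the others. *Usp34* was at 603 CPM there and at 371 to 398 CPM in the others. In all, 33 groups of 4 were tested, and chance gives about 1 in 20. Replicate 2 had 19.4% of its reads in mitochondrial genes, a share not particular to it, since fl/Y replicates 1 and 2 of the same batch had 21.4% and 19.0%. The part of this share in both values was not tested.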

How the results depend on the processing

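Over 20 alternatives set at the outset and 1 added later, 0 members passed an adjusted p of 0.05 for genotype, and the median log2 fold change of the members ran from -0.03 to 0.02. The log2 fold change kept its sign in every alternative for 14 of the 32 members named by rule, and 54 of 670 single fits had the other sign. *Usp27x* was higher in 21 of 21 fits (0.52 to 0.84) and at an unadjusted p under 0.05 in 16, and *Usp51* was lower in 20 of 20 (-1.18 to -0.37) and at such a p in 9. Where the counts below moved, the cause was not tested.

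Members higher at an unadjusted p under 0.05 (1 in the report) numbered 0 in batch 2 alone and with DESeq2, 2 in batch 1 alone (*Usp27x* and *Otud5*; its lone fl/Y library is assumed to vary like the others) and 2 without fl/Y replicate 1 and cKO/Y Sox2-Cre replicate 2, and 0 to 3 when 1 library was left out. Members lower (1 in the report) numbered 0 with log2(CPM + 0.1), with a mean CPM above 5 (which removes *Usp51*), without the batch term, with CPM rescaled to equal totals, in either batch alone, with edgeR and with DESeq2, and 0 to 2 when 1 library was left out.

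With the replicate number as a block in place of the batch, which also leaves out cKO/Y Sox2-Cre replicate 4, 2 members were lower (*Usp51* and *Usp26*), 0 genes of all were lower at an adjusted p, and *Rlim* was at -1.35. Leaving out that library with the batch term kept gave the same 2 members lower. Libraries of the same number correlated in their deviations at 0.10, 0.07 and 0.39, the last within 1 batch, and fl/Y replicate 1 correlated most with cKO/Y Sox2-Cre replicate 2, so the numbers were not treated as pairs.

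Over all genes, those lower at an adjusted p (1 in the report) numbered 0 without the batch term, without the variance trend and in batch 2 alone, 11 in batch 1 alone, and 0 to 3 when 1 library was left out. Those higher (0 in the report) numbered 17 in batch 1 alone and 0 to 1 when 1 library was left out. *Rlim* was no longer past the threshold without the batch term (-1.47), without the variance trend (-1.38), in batch 2 alone (-1.29), and without fl/Y replicate 1 (-1.28) or 3 (-1.29). With the replicate block it also lost its call, and *Rlim* kept it in the other 15 of 21 alternatives. When 1 library was left out, its log2 fold change ran from -1.52 to -1.28. Members called for batch (1) numbered 0 without the variance trend and 7 with equal totals. Genes whose genotype effect differed between batches (2) numbered 1 with log2(CPM + 0.1), 1 with a mean CPM above 5, 0 without the variance trend and 5 with equal totals. The depth limits *Usp51* most, with 1 to 13 reads a library.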
